A study of Mus musculus with 8 samples.

Results

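Bile acid synthesis, transport and sensing is represented here by 32 genes, out of 19321 genes with a probe on the array. They were chosen by name as the enzymes, carriers and receptors of this pathway, with earlier results of these data known. All 32 had a probe, and 31 of them were among the 16800 genes bright enough to be tested. Of the 31, 19 were lower and 1 was higher in liver tumours than in the surrounding tissue of the same livers. Liver RNA was measured on 8 single-colour microarrays in 3 groups. Tumour tissue (3 arrays) and non-tumour tissue (3 arrays) came from the same 3 livers of DMBA-treated mice fed a high fat diet, and are named by mouse number (117, 186 and 1). Normal diet liver (2 arrays) came from 2 DMBA-treated mice fed normal diet (117 and 120), and its mouse 117 shares a number with a high fat diet mouse but is paired with nothing. All mice of all groups had been given the carcinogen DMBA at 4 to 5 days of age and were kept on their diet for 30 weeks, so no group without carcinogen was analysed here. Strain and sex are not given in the sources used here. The non-tumour group is tissue of tumour-bearing livers, which limits it as a model of diet alone.

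Bile acids are made from cholesterol in hepatocytes. The classical route begins with Cyp7a1, its rate-limiting enzyme, and the alternative route begins with Cyp27a1 and continues with Cyp7b1. The products are conjugated to taurine or glycine, pumped into bile across the canalicular membrane, taken up again from portal blood across the sinusoidal membrane, and sensed by the nuclear receptor FXR (Nr1h4), which induces the repressor SHP (Nr0b2) and the export pump gene Abcb11.

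Levels below are the deposited normalized intensity, a linear value that has a median of 25 on every array. They compare arrays for 1 gene and do not compare genes with each other. Log2 fold changes come from limma, are given ± SE, and carry p-values adjusted over all 16800 genes. A gene is called where the adjusted p is below 0.05. An offset of 50 scanner units, or 38.9 to 64.6 units of the deposited scale, was added to every signal before the log, so the folds of dim genes are understated. Arrays of 1 group correlated at 0.984 to 0.996, and arrays of different groups at 0.919 to 0.983. In bulk tissue fewer cells of a type and less RNA per cell cannot be told apart.

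Most of the pathway was lower in tumours. The calls were 4 of 6 hydroxylases, 6 of 7 ring, side chain and conjugation genes, 4 of 4 uptake carriers, 2 of 5 canalicular genes, 1 of 3 basolateral exporters tested and 2 of 6 receptors and regulators. Together 19 of 31 members (61.3%) were lower, where 13.4% of all genes tested were lower, and 1 of 31 was higher, where 12.0% of all genes were. On the deposited scale 22 members lay wholly below and 1 wholly above non-tumour tissue, where 22.2% and 14.9% of all genes did. With the local background of each spot subtracted, limma called 0 members and 129 genes in all. Its unadjusted p was below 0.05 for 9 members lower and 1 higher, where 1762 of 16800 genes passed in either direction. Of the 20 called members 18 kept their sign. The median log2 fold change of the 31 members was -0.99, beside -0.01 for all genes tested. By role the median was -1.91 for uptake, -1.69 for the hydroxylases, -1.19 for ring, side chain and conjugation genes, -0.25 for receptors and regulators, -0.19 for canalicular genes and -0.02 for basolateral exporters. The last median rests on 3 genes, Abcc3, which was called lower (-0.72), and the dim Abcc4 and Slc51b, where the offset understates folds. On the deposited scale their tumour over non-tumour ratios of means were 0.50, 1.09 and 0.96. Roles were not matched for brightness, so these medians do not rank them.

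**Figure D1:**
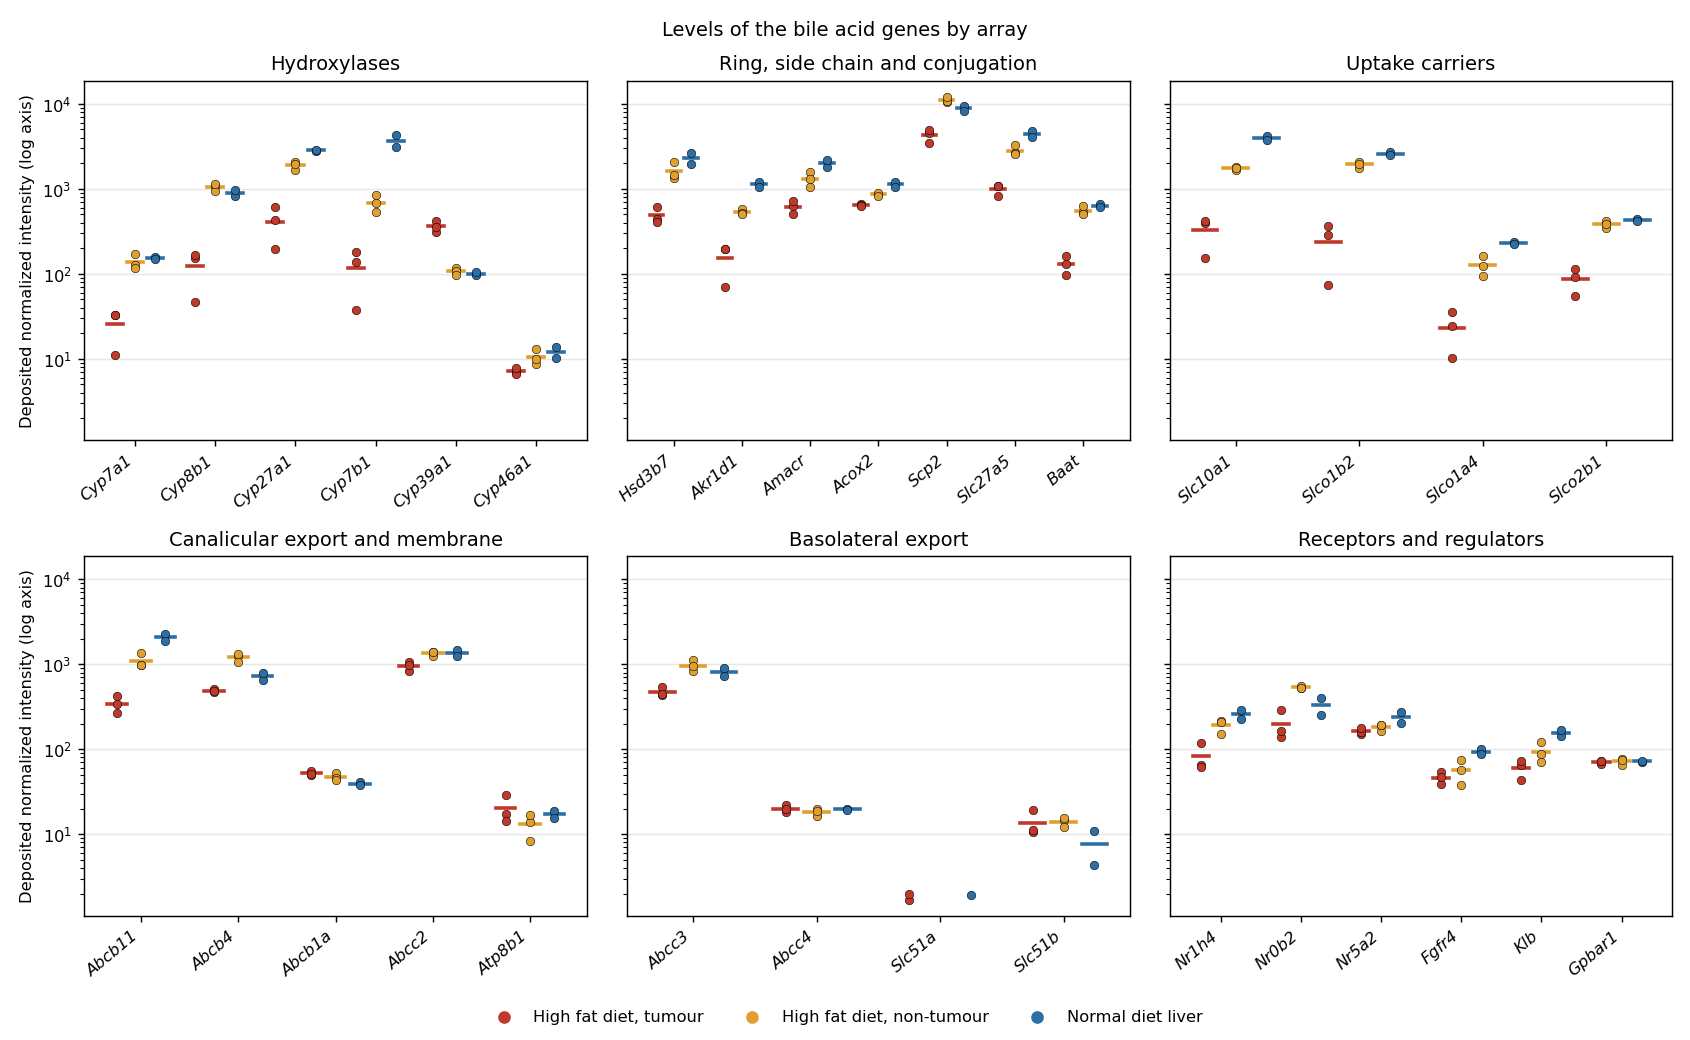
Deposited normalized intensity (log axis) of the 32 members, in panels by role. Points are single arrays of high fat diet tumour (red), high fat diet non-tumour tissue (yellow) and normal diet liver (blue), and bars are group means. Slc51a has a value on 3 arrays only and no mean. The tumour points of all 4 uptake carriers lie below both other groups, and those of Cyp39a1 lie above them.

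The hydroxylases set the rate and the mixture of bile acids. Cyp7a1 had 32.6, 32.4 and 11.1 in the tumours of mice 117, 186 and 1, against 125, 118 and 171 in their non-tumour tissue and 156 and 151 in the normal diet livers. It fell in tumours relative to non-tumour tissue by 1.36 on the log2 scale (SE 0.15, adjusted p 0.00178), and every tumour value lay below every value of the other groups. Cyp8b1, the sterol hydroxylase needed for cholic acid, had 154, 168 and 47.0 in tumours, against 1087, 946 and 1148 in non-tumour tissue and 817 and 958 in normal diet liver. It fell too (-2.66 ± 0.35, adjusted p 0.00293), and the tumour mean was 8.61-fold lower on the deposited scale.

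Both enzymes of the alternative route were lower in tumours as well. Cyp27a1, the mitochondrial sterol hydroxylase that starts this route, had 426, 608 and 197 in tumours, against 2088, 1687 and 1973 in non-tumour tissue and 2789 and 2897 in normal diet liver (tumour over non-tumour -2.02 ± 0.38, adjusted p 0.0113). Cyp7b1, the oxysterol hydroxylase that follows it, had 136, 178 and 37.0 in tumours, against 681, 532 and 852 in non-tumour tissue and 3118 and 4290 in normal diet liver (-2.14 ± 0.41, adjusted p 0.0116). Fitted with a term for each mouse (a block), Cyp7b1 had an adjusted p of 0.0572 (lowest 0.00201 and highest 0.965 among alternatives). Its 3 groups were separate, in the order tumour, non-tumour, normal diet from low to high.

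Cyp39a1 went the other way. This enzyme hydroxylates the cholesterol derivative made by Cyp46a1. It had 312, 422 and 352 in tumours, against 117, 108 and 97.4 in non-tumour tissue and 96.7 and 104 in normal diet liver. It rose by a log2 fold change of 1.56 ± 0.12 over non-tumour tissue (adjusted p 0.000591), 3.36-fold on the deposited scale, and was the only member called higher in that comparison. Cyp46a1, known mainly as a brain enzyme, was dim, with 7.0, 6.7 and 7.8 in tumours, against 8.6, 9.9 and 13 in non-tumour tissue and 13.6 and 10.2 in normal diet liver. It did not pass (-0.09 ± 0.04, adjusted p 0.119), although its tumour and non-tumour values did not overlap.

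The enzymes that finish the steroid ring and shorten the side chain followed the main hydroxylases, with 1 exception. Hsd3b7, the dehydrogenase that acts on the ring after the first hydroxylation, had 446, 612 and 407 in tumours, against 1331, 1453 and 2062 in non-tumour tissue and 2629 and 1978 in normal diet liver (tumour over non-tumour -1.41 ± 0.22, adjusted p 0.00582). Akr1d1, the reductase that gives the ring its bent shape, had 198, 196 and 69.4 in tumours, against 579, 518 and 512 in non-tumour tissue and 1217 and 1047 in normal diet liver (-1.49 ± 0.32, adjusted p 0.0181). The call on Akr1d1 ended without the non-tumour array of mouse 117 (adjusted p 0.0588) or 186 (0.0538) (lowest 0.00103 and highest 0.517 among alternatives).

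Amacr, a racemase of the side chain intermediates, had 624, 719 and 508 in tumours, against 1592, 1314 and 1057 in non-tumour tissue and 1806 and 2209 in normal diet liver (-0.79 ± 0.22, adjusted p 0.0425). The groups did not overlap, but the call depended on the setting. It ended with no filter on dim genes (adjusted p 0.0559), with the compared groups alone or without normal diet liver 117 or 120 (0.0685 each), and without the non-tumour array of mouse 117 (0.113) or 186 (0.108) or the tumour array of mouse 117 (0.0901) or 1 (0.0952). Its adjusted p ranged from 0.00175 to 0.983 over its alternatives. Acox2, the peroxisomal oxidase of the side chain, was the exception, with 657, 651 and 632 in tumours, against 860, 886 and 834 in non-tumour tissue and 1212 and 1040 in normal diet liver. Acox2 did not pass (-0.10 ± 0.07, adjusted p 0.378), although its groups were separate on the deposited scale. With scaling to the same median its change was -0.35 (adjusted p 0.0249), and with the authors' values -0.41 (0.00949, lowest 0.00949 and highest 0.739 among alternatives).

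Scp2, whose products are a sterol carrier and a peroxisomal thiolase, had 4509, 4969 and 3425 in tumours, against 10382, 10836 and 11929 in non-tumour tissue and 9431 and 8281 in normal diet liver (-1.03 ± 0.19, adjusted p 0.0105). Both genes of conjugation were lower. Slc27a5, the bile acid CoA ligase, had 1084, 1090 and 834 in tumours, against 2629, 2542 and 3243 in non-tumour tissue and 4846 and 4032 in normal diet liver (-1.19 ± 0.16, adjusted p 0.00339). Baat, which joins the activated bile acid to taurine or glycine, had 130, 163 and 97.6 in tumours, against 527, 510 and 624 in non-tumour tissue and 657 and 609 in normal diet liver (-1.65 ± 0.15, adjusted p 0.000859). In both the highest tumour value lay below every other array.

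All 4 uptake carriers were called lower in tumours, and none of them overlapped with non-tumour tissue. Slc10a1, the sodium-dependent taurocholate carrier NTCP, had 401, 423 and 153 in tumours, against 1680, 1812 and 1739 in non-tumour tissue and 4243 and 3759 in normal diet liver (-2.18 ± 0.36, adjusted p 0.00684). Slco1b2, the main liver organic anion carrier for unconjugated bile acids in mice, had 286, 360 and 72.9 in tumours, against 2093, 1755 and 1972 in non-tumour tissue and 2717 and 2491 in normal diet liver. It fell in tumours relative to non-tumour tissue (-2.82 ± 0.48, adjusted p 0.00759), and its tumour mean was 8.10-fold lower on the deposited scale.

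The other two carriers are organic anion carriers of wide substrate range. Slco1a4 had 24.3, 35.2 and 10.2 in tumours, against 94.3, 164 and 122 in non-tumour tissue and 235 and 223 in normal diet liver (-1.31 ± 0.19, adjusted p 0.00390). Slco2b1, a carrier of steroid sulphates, had 92.0, 115 and 54.1 in tumours, against 417, 344 and 388 in non-tumour tissue and 442 and 418 in normal diet liver (-1.64 ± 0.19, adjusted p 0.00185). For Slco1a4 the 3 groups were separate, with tumours lowest and normal diet livers highest.

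At the canalicular membrane the bile salt pump and the phospholipid transporter were lower in tumours and 3 other members were not called. Abcb11, the bile salt export pump, had 265, 424 and 342 in tumours, against 969, 983 and 1360 in non-tumour tissue and 2256 and 1887 in normal diet liver (-1.34 ± 0.18, adjusted p 0.00327). Abcb4, which moves phosphatidylcholine into bile, had 468, 518 and 485 in tumours, against 1269, 1056 and 1308 in non-tumour tissue and 648 and 798 in normal diet liver (-0.99 ± 0.11, adjusted p 0.00153). Abcb4 differed from Abcb11 in the order of the groups, since its highest values were those of non-tumour tissue and not those of normal diet liver.

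Abcc2, the pump for conjugated bilirubin and other organic anions, had 1057, 837 and 977 in tumours, against 1389, 1249 and 1381 in non-tumour tissue and 1467 and 1237 in normal diet liver. It did not pass (-0.19 ± 0.09, adjusted p 0.192) and did pass with scaling to the same median (-0.44, adjusted p 0.0364), with the authors' values (-0.49, 0.0132) and without the tumour array of mouse 117 (0.0372), lowest 0.0132 and highest 0.993 among alternatives. Abcb1a, a drug efflux pump, had 49.6 to 55.8 in tumours, 43.6 to 52.6 in non-tumour tissue and 37.8 to 41.0 in normal diet liver, with overlap of the first 2 groups. Atp8b1, the aminophospholipid flippase whose human counterpart is mutated in an inherited cholestasis, was dim and overlapped in all groups, with 14.4 to 28.8, 8.4 to 16.7 and 15.5 to 18.7 in the same order. Neither passed between tumour and non-tumour tissue (adjusted p 0.411 for Abcb1a and 0.188 for Atp8b1).

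Of the basolateral exporters, which return bile acids to blood, Abcc3 was called lower in tumours. Abcc3 had 544, 439 and 451 in tumours, against 1109, 829 and 955 in non-tumour tissue and 913 and 720 in normal diet liver (-0.72 ± 0.14, adjusted p 0.0127), with every tumour value below every other array. Abcc4 had 18.0, 22.3 and 19.8 in tumours, against 16.4, 19.8 and 18.9 in non-tumour tissue and 20 and 19.3 in normal diet liver, and did not pass (0.03 ± 0.03, adjusted p 0.504). A second, dimmer Abcc4 probe had 2.3 to 3.2 in tumours, 4.2 to 4.7 in non-tumour tissue and 1.8 to 4.6 in normal diet liver and was not tested.

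The organic solute transporter, made of the products of Slc51a and Slc51b, was near the lower limit of the array. Slc51b had 10.7, 11.1 and 19.0 in tumours, against 14.6, 15.5 and 12.2 in non-tumour tissue and 4.3 and 10.9 in normal diet liver (-0.02 ± 0.08, adjusted p 0.875). Slc51a had a value on 3 arrays, 1.7 and 2.0 in the tumours of mice 186 and 1 and 1.9 in normal diet liver 120, was at the blank level on the other 5, and was the member that could not be tested. A change in this pair was not detectable at this signal.

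Among the sensors the receptor FXR and its target SHP were lower in tumours. Nr1h4, the gene of FXR, had 65.7, 120 and 61.8 in tumours, against 153, 214 and 209 in non-tumour tissue and 229 and 286 in normal diet liver (-0.85 ± 0.20, adjusted p 0.0263). Its call ended without the tumour array of mouse 117 (0.0799) or 1 (0.0663) or the non-tumour array of mouse 186 (0.0807) or 1 (0.0792), lowest 0.00479 and highest 0.844 among alternatives. Nr0b2, the gene of SHP, had 138, 290 and 163 in tumours, against 522, 549 and 530 in non-tumour tissue and 256 and 406 in normal diet liver (-1.15 ± 0.26, adjusted p 0.0220). Tumour and non-tumour values did not overlap, yet this call ended without any one of 5 arrays, namely the tumour array of mouse 117 (0.0653) or 1 (0.0632) and the non-tumour array of mouse 117 (0.0610), 186 (0.0671) or 1 (0.0607), lowest 0.00244 and highest 0.888 among alternatives.

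Nr5a2 (LRH-1), the nuclear receptor that binds the Cyp7a1 and Nr0b2 promoters, had 151, 159 and 178 in tumours, against 162, 193 and 191 in non-tumour tissue and 273 and 206 in normal diet liver, and did not pass between tumour and non-tumour tissue (-0.03 ± 0.08, adjusted p 0.841). Fgfr4, the hepatocyte receptor for the gut hormone Fgf15, had 38.8 to 53.6 in tumours, 37.7 to 75.2 in non-tumour tissue and 87.0 to 100.5 in normal diet liver. Its co-receptor gene Klb had 42.9 to 72.2 in tumours, 70.5 to 122 in non-tumour tissue and 141 to 170 in normal diet liver. Tumour and non-tumour values overlapped for both, and neither passed (adjusted p 0.507 for Fgfr4 and 0.195 for Klb). Gpbar1, the membrane receptor for bile acids found mainly on cells other than hepatocytes, was nearly level, with 67.7 to 73.1, 65.2 to 76.7 and 71.7 to 72.0 in the same order (0.01 ± 0.04, adjusted p 0.833). Among the 6 genes of this role the 4 uncalled ones had intervals of the log2 change within -0.79 and 0.17.

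The promoters of Nr0b2 and Abcb11, the best known FXR targets in hepatocytes, are shown because both genes fell in tumours while their values lay on opposite sides of normal diet liver in non-tumour tissue, where neither was called. RefSeq windows of GRCm38.p6, from 250 bases before to 50 after the gene start, were searched on both strands for the inverted repeat of FXR (AGGTCA and its reverse complement TGACCT, 1 base apart) and its core with the outer base left off each side, for CAAGGTCA and CAAGGCCA (LRH-1), for a direct repeat of AGGTCA with 1 base between the copies, for the HNF1 palindrome (GTTAAT and ATTAAC, 1 base apart) and for CACGTG (E box). Capitals mark matches, and in Abcb11 they mark AGGCCA and TGACCT, 1 base apart, which differs from the inverted repeat in 1 letter and was added to the search after the window had been read.
Nr0b2, chr4:133553126-133553425, plus strand: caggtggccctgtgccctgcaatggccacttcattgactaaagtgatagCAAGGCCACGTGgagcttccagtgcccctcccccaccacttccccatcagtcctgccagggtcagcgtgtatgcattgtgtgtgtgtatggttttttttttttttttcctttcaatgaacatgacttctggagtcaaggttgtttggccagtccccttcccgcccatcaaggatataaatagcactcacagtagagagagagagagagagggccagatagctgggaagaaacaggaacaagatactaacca
Abcb11, chr2:69342567-69342866, minus strand: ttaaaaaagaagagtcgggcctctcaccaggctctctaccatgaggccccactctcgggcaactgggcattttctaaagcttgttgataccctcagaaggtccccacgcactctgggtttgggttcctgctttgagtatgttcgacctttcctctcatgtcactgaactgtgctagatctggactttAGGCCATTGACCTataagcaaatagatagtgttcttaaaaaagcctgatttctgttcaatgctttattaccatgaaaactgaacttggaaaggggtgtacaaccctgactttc
In Nr0b2 the letters CAAGGCCA lie 201 to 194 bases before the start and overlap an E box at 195 to 190. In Abcb11 the marked letters lie 63 to 51 bases before the start. The table holds 30 windows of 24 members. CAAGGCCA was found in 2 of the 30 windows (Nr0b2 and Slc51a) and in 2.40% of all 32851 windows. CACGTG was found in 3 of the 30 (Nr0b2, Slc51a and Abcc4) and in 7.15% of all windows. The repeat with the changed letter was taken from the Abcb11 window, so its match there was fixed in advance. It was found in no other of the 24 members and in 0.0152% of all windows. The other 5 motifs were found in none of the 30 windows, and in 0.00913% to 1.56% of all windows. A match describes letters and says nothing of binding.

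**Figure D2:**
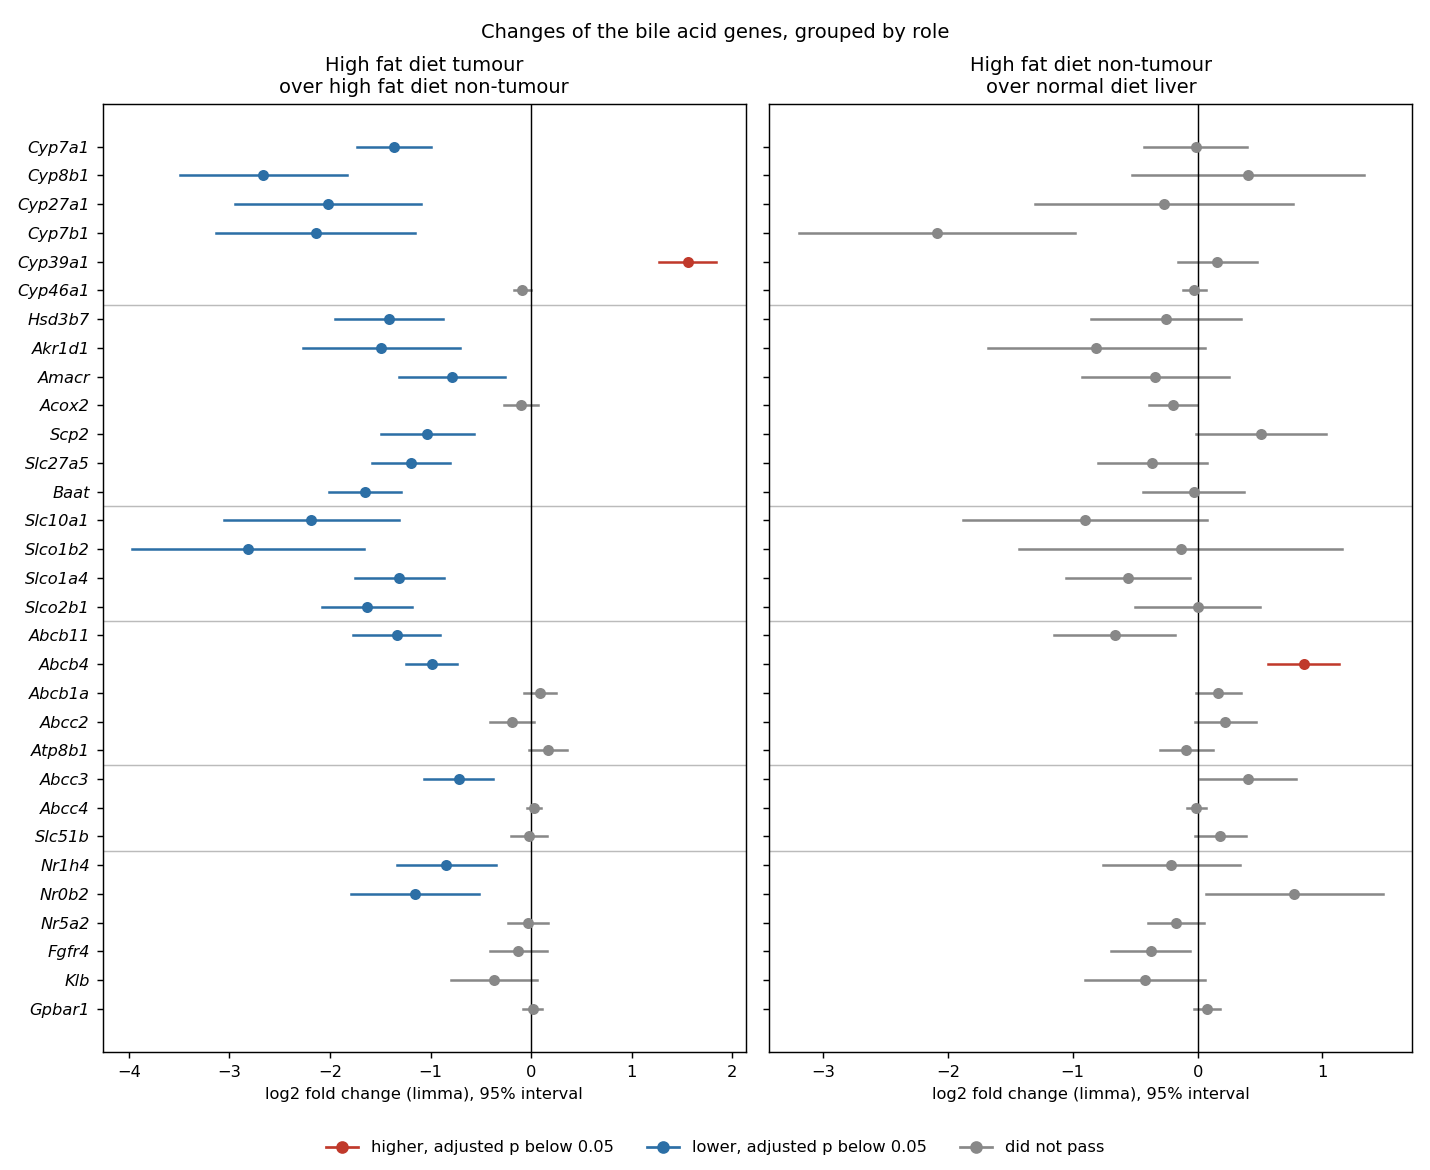
Log2 fold change (limma, horizontal axis) with its 95% interval for the 31 members tested, in rows grouped by role. The left panel shows tumour over non-tumour tissue of high fat diet livers, with 19 lower (blue) and 1 higher (red), and the right panel non-tumour tissue over normal diet liver, with 1 higher. Grey members did not pass.

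Within the livers the direction was shared and the depth differed. The difference of tumour minus non-tumour tissue of the same liver was below 0 in all 3 mice for 23 of 31 members, where 31.9% of all genes tested were. It was above 0 in all 3 for Cyp39a1 alone, where 27.2% of all genes tested were. The other 7 members (Abcb1a, Atp8b1, Abcc4, Slc51b, Nr5a2, Fgfr4 and Gpbar1) were mixed in sign. The tumour of mouse 1 was the lowest of the 3 tumours for 21 of 31 members, where it was the lowest for 32% of all genes. The tumour of mouse 117 was the lowest for 4 members (30.8% of all genes) and that of mouse 186 for 6 (37.2% of all genes). Among the 19 members called lower the tumour of mouse 1 was the lowest for 17, where it was the lowest for 52.8% of all genes called lower. The median within-liver difference of these 19 members was -1.25 in mouse 117, -1.13 in mouse 186 and -1.89 in mouse 1, beside -0.37, -0.35 and -0.43 for all genes called lower. These sets were not matched for brightness, and the offset understates the folds of dim genes.

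Several of the members with deep changes differed between the 3 tumours. For Slco1b2 the within-liver differences were -2.49, -1.97 and -3.98 in mice 117, 186 and 1. For Cyp8b1 they were -2.32, -2.08 and -3.60, and for Cyp7b1 -1.81, -1.27 and -3.34. Cyp39a1 was not ordered this way, with 1.32, 1.77 and 1.59. Without the tumour of mouse 1, 16 members were still called lower and Cyp39a1 higher, where 1843 of 16800 genes were lower and 1741 higher.

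**Figure D3:**
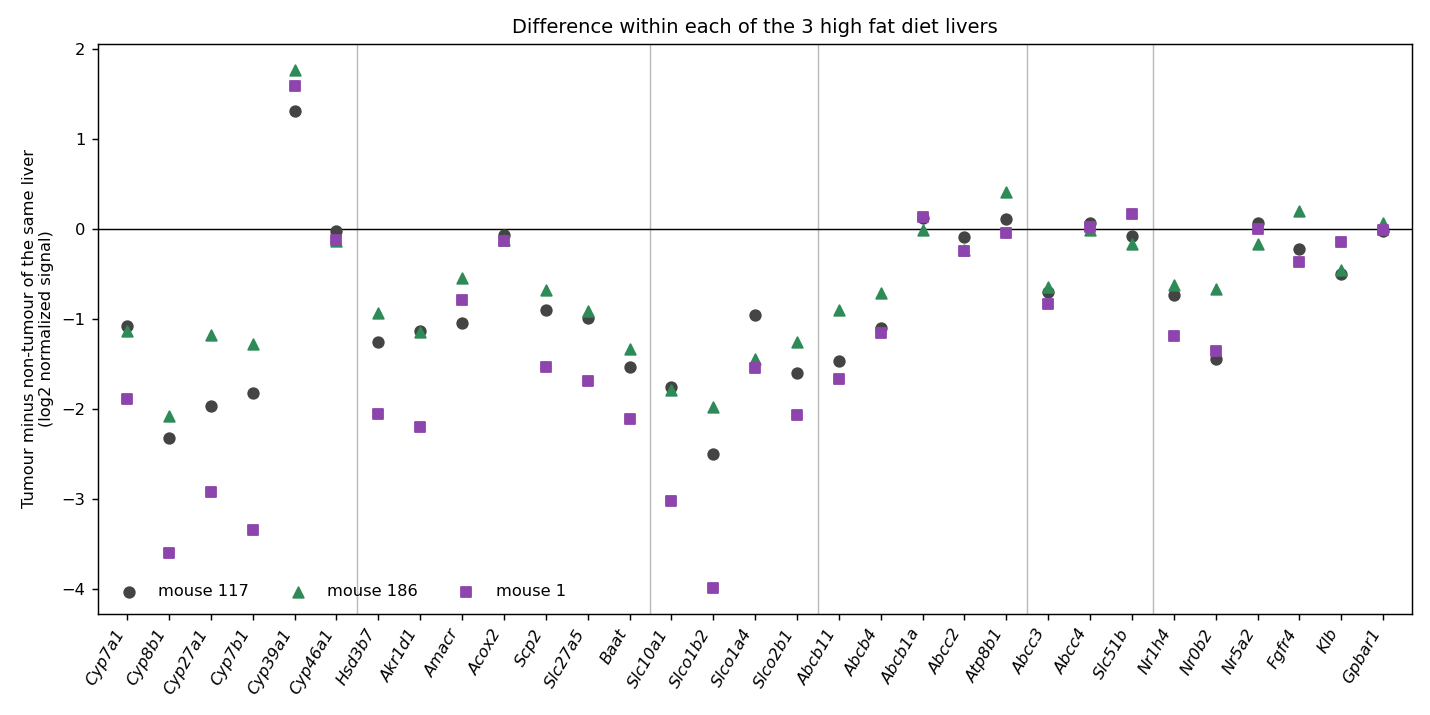
Tumour minus non-tumour log2 signal of the same liver (vertical axis) for each of the 31 members tested, with 1 symbol per mouse and vertical lines between roles. The squares of mouse 1 lie lowest for most called members, down to -3.98 for Slco1b2, and all 3 symbols lie above 0 for Cyp39a1.

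The diet comparison sets non-tumour tissue of high fat diet livers against normal diet liver, and shares the non-tumour arrays with the comparison above. Of 31 members 1 was called higher (1.81% of all genes were) and 0 lower (2.02% of all genes were), with limma, where 3.83% of all genes were called in either direction. At an unadjusted p below 0.05 (limma), 3 members were higher and 5 lower, where 3362 of 16800 genes passed in either direction. Abcb4 was the called member, with the values given above, a log2 fold change of 0.85 ± 0.12 and an adjusted p of 0.0188. Its high fat diet values, all above 1000, lay above the normal diet values, 648 and 798. The call ended without normal diet liver 117 (adjusted p 0.103) or 120 (0.0515) or the non-tumour array of mouse 117 (0.0597) or 1 (0.0529), lowest 0.00287 and highest 0.831 among alternatives.

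Another 7 members differed by at least 0.5 on the log2 scale without passing. Among them Cyp7b1 had 532 to 852 in non-tumour high fat diet tissue and 3118 and 4290 in normal diet liver, a 5.38-fold lower mean on high fat diet (-2.09 ± 0.46, adjusted p 0.0649). It was called with the compared groups alone (adjusted p 0.0251), without the tumour array of mouse 1 (0.0120), with scaling to the same median (0.0435) and with the authors' values (0.0223), lowest 0.0120 and highest 0.999 among alternatives. The spread in the fit is shared by all 8 arrays, so the tumour arrays enter the p-values of this comparison too.

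Slc10a1 (-0.90 ± 0.41, adjusted p 0.284) and Akr1d1 (-0.81 ± 0.36, adjusted p 0.281) were also lower in every high fat diet array than in either normal diet liver. Without tumour array 1 the adjusted p was 0.00535 for Slc10a1 and 0.00969 for Akr1d1, and with the compared groups alone 0.0138 and 0.0219, in ranges of 0.00535 to 0.937 and 0.00969 to 0.999. Abcb11 (-0.66 ± 0.20, adjusted p 0.136) and Slco1a4 (-0.56 ± 0.21, adjusted p 0.201) did not overlap between diets either, and Abcb11 was called with the authors' values (0.0339, lowest 0.0339 and highest 0.999 among alternatives). On the other side were Nr0b2 (0.77 ± 0.30, adjusted p 0.213) and Scp2 (0.51 ± 0.22, adjusted p 0.258), both without overlap. Scp2 was called with the compared groups alone (0.0416) and with scaling to the same median (0.0388, lowest 0.0388 and highest 0.999 among alternatives).

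The remaining 23 members had log2 fold changes of -0.42 to 0.41 between the diets, and none was called. Cyp7a1 (-0.01 ± 0.17, 95% interval -0.43 to 0.40) and Cyp8b1 (0.41 ± 0.39, 95% interval -0.52 to 1.33) were among them. On the deposited scale 15 members lay wholly below and 5 wholly above normal diet liver, where 31.4% and 13% of all genes did. The split of all calls in this comparison moved with the scaling: 47.2% of called genes were higher in high fat diet tissue here, 77.3% with scaling to the same median and 29.8% with the authors' values.

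Tumours were also set directly against normal diet liver, a comparison that shares its arrays with both comparisons above. Here 18 members were lower in tumours (15% of all genes were) and 2 were higher (12.9% of all genes were), 27.9% of all genes being called in either direction. On the deposited scale 24 members lay wholly below and 2 wholly above normal diet liver, where 39.1% and 16.8% of all genes did. Of all calls 46.2% were higher in tumours, 39.0% with scaling to the same median and 30.3% with the authors' values, where the median log2 fold change of all genes was -0.11, beside -0.01 here. Cyp7b1 had a tumour mean 31.6-fold lower than normal diet liver on the deposited scale (117 ± 72.5 against 3704 ± 829, SD, n = 3 and 2). Its log2 fold change was -4.23 ± 0.46 (adjusted p 0.00149). Slc10a1 was lower as well (326 ± 150 against 4001 ± 342, log2 fold change -3.09 ± 0.41, adjusted p 0.00277). The 2 higher members were Cyp39a1 (1.72 ± 0.13, adjusted p 0.000495) and Abcb1a (0.25 ± 0.07, adjusted p 0.0456). Abcb1a lost its call without normal diet liver 117 (0.172) or 120 (0.171), the tumour array of mouse 117 (0.0732) or 1 (0.0714) or the non-tumour array of mouse 186 (0.0734), when dim genes were kept (0.0549) and when fitted without non-tumour arrays (0.0744), lowest 0.0155 and highest 0.574 among alternatives.

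Acox2, Fgfr4 and Klb were called lower in tumours against normal diet liver (log2 fold changes -0.30 ± 0.08, -0.50 ± 0.13 and -0.78 ± 0.20). Scp2, Abcb4, Abcc3 and Nr0b2 were called lower only against non-tumour tissue. Whether the 2 comparisons differ for these genes was not tested. Only 2 arrays stand behind normal diet liver. Without array 117, and likewise without array 120, fewer members and also fewer of all genes were called lower. In both cases Acox2 (adjusted p 0.202 and 0.0662), Fgfr4 (0.162 and 0.111) and Klb (0.0858 and 0.161) were not called, in ranges of 0.000384 to 0.379, 0.00697 to 0.206 and 0.00308 to 0.526. Cyp27a1, Amacr, Slco1b2 and Nr1h4 lost their calls too in both cases (adjusted p 0.0542 to 0.110), as did Cyp8b1 without array 120 (0.0541). Acox2 was also not called without the non-tumour array of mouse 117 (0.0590), the tumour array of mouse 117 (0.0575) or 1 (0.0627) or with the compared groups alone (0.0665). Fgfr4 was also not called without the non-tumour array of mouse 117 (0.0542), the tumour array of mouse 117 (0.0822), 186 (0.0503) or 1 (0.0707) or with scaling to the same median (0.0661).

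A list of 49 other genes of the pathway, of which 43 were tested, was mixed in tumours against non-tumour tissue: 20 (46.5%) were lower, 4 (9.3%) were higher and 19 were not called, where 13.4% of all genes were lower and 12.0% higher. The median log2 fold change of the 43 was -0.39, beside -0.01 for all genes tested. The peroxisomal side chain genes among them include Ehhadh, with 467, 457 and 339 in tumours, against 1322, 1543 and 1559 in non-tumour tissue (-1.51 ± 0.17, adjusted p 0.00185). Acaa1b (-1.64 ± 0.28), Hsd17b4 (-1.20 ± 0.21) and Abcd3, a peroxisomal membrane transporter (-1.15 ± 0.12), were lower too. Nr1i3, the xenobiotic receptor CAR, had 84.6, 133 and 24.7 in tumours, against 515, 505 and 517 in non-tumour tissue (-2.14 ± 0.33, adjusted p 0.00543).

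The detoxifying genes Cyp3a11 (-1.66 ± 0.32) and Sult2a8, a bile acid sulphotransferase in mice (-2.35 ± 0.56, adjusted p 0.0249), and the steroid dehydrogenase gene Akr1c6 (-1.68 ± 0.20) were lower in tumours. Sult2a8 lost its call without the non-tumour array of mouse 117 (0.0791) or 1 (0.0743) or the tumour array of mouse 186 (0.0566), lowest 0.00490 and highest 0.970 among alternatives. The higher genes named by the rule were Cyp17a1, an enzyme of sex steroid synthesis (1.82 ± 0.21, adjusted p 0.00191), and Dhcr7, the last enzyme of cholesterol synthesis (1.49 ± 0.13, adjusted p 0.000847). Dhcr7 had 125, 202 and 179 in tumours, against 36.0, 37.0 and 32.3 in non-tumour tissue and 37.6 and 51.9 in normal diet liver.

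Between the diets 2 genes of this list (4.65% of 43) were lower and 4 (9.3%) higher, where 2.02% of all genes were lower and 1.81% higher. Slco1a1, a male-biased organic anion carrier of mouse liver, had 82.2, 39.0 and 37.6 in non-tumour high fat diet tissue, against 1442 and 1236 in normal diet liver (-3.56 ± 0.29, adjusted p 0.00372). Cyp2c70, which makes the muricholic acids typical of mice, had 1322, 924 and 976 in non-tumour tissue, against 4367 and 3975 in normal diet liver (-1.65 ± 0.16, adjusted p 0.00643). Its call ended without normal diet liver 117 (0.0556) or 120 (0.0540), lowest 0.000535 and highest 0.788 among alternatives. Unlike the 4 called hydroxylases of the main routes, Cyp2c70 did not pass between the tissues of the high fat diet livers (1240, 1008 and 1296 in tumours, 0.42 ± 0.14, adjusted p 0.0782).

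Cyp2b10, a target of CAR, was higher on high fat diet, with 324, 377 and 454 in non-tumour tissue, against 84.9 and 39.7 in normal diet liver (2.04 ± 0.18, adjusted p 0.00485). Cyp17a1 had 168, 193 and 229 in non-tumour tissue, against 22.3 and 23.1 in normal diet liver (1.82 ± 0.23, adjusted p 0.0145), a call that ended without normal diet liver 117 (0.102) or 120 (0.102) or the non-tumour array of mouse 186 (0.0527), lowest 0.000823 and highest 0.102 among alternatives. Ephx1, the microsomal epoxide hydrolase, was higher as well (0.85 ± 0.15, adjusted p 0.0375). That call ended without normal diet liver 117 (0.207) or 120 (0.168), the non-tumour array of mouse 117 (0.0598), 186 (0.0912) or 1 (0.0624) or the tumour array of mouse 117 (0.0630), with no filter (0.0503) and with the authors' values (0.0683), lowest 0.00638 and highest 0.999 among alternatives.

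**Figure D4:**
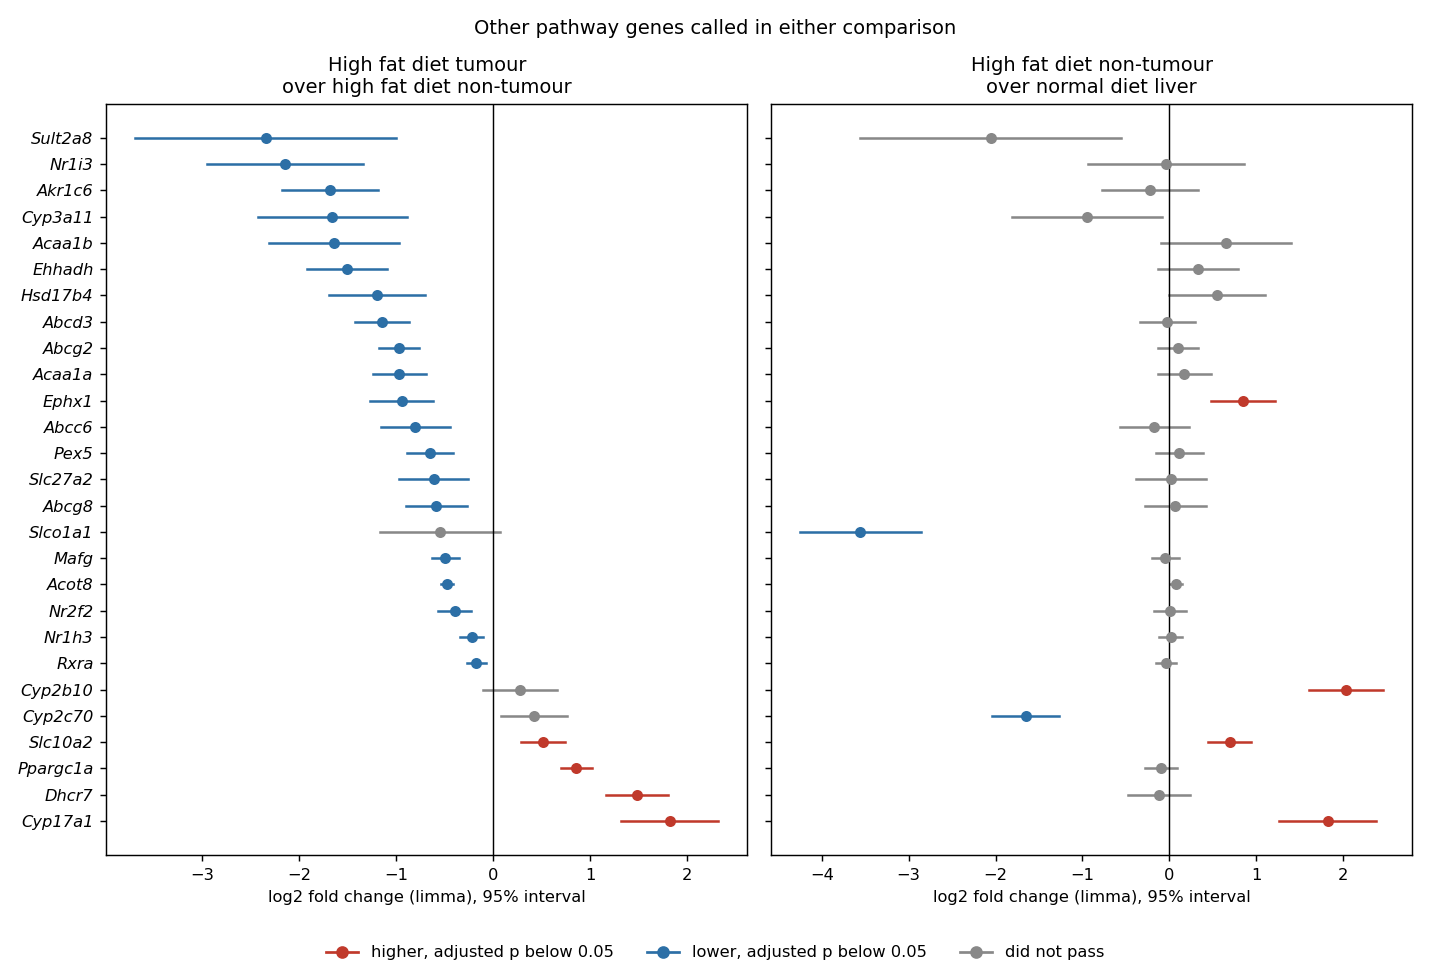
Log2 fold change (limma, horizontal axis) with its 95% interval for the 27 other pathway genes called in either comparison, sorted by the tumour change. The left panel shows tumour over non-tumour tissue and the right panel non-tumour tissue over normal diet liver. Slco1a1 and Cyp2c70 are called lower in the right panel and not called in the left, where they lie at -0.55 and 0.42, and Cyp17a1 is called higher in both.

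The labelled tissue was liver by its markers. Each sum below follows the brightest probes of its list and does not measure cell number. The summed intensity of 8 hepatocyte markers was 165656 to 178510 in tumours, 146511 to 150100 in non-tumour tissue and 187500 to 192640 in normal diet liver, with 3 of 8 (Apoa1, Serpina1a and Fga) called higher in tumours than in non-tumour tissue. In that comparison 12.0% of all genes tested were higher and 13.4% lower. Alb, the albumin gene, did not pass (log2 fold change 0.04). Alb was among the brightest probes, and the reason for its small change was not tested. Its deposited means were 47269 in tumours and 46977 in non-tumour tissue. Tat, the tyrosine aminotransferase gene of mature hepatocytes, had 696, 1820 and 663 in tumours, against 2158, 3481 and 3443 in non-tumour tissue and 5463 and 6223 in normal diet liver, without overlap. Tat did not pass between tumour and non-tumour tissue (-1.35 ± 0.42, adjusted p 0.0625) and was called lower in tumours than in normal diet liver (-2.08 ± 0.47, adjusted p 0.0203). The summed cholangiocyte markers, 6 of 8 measured, were 2103 to 4799 in tumours, 123 to 175 in non-tumour tissue and 104 to 128 in normal diet liver, with Tspan8 at 3804, 1998 and 4703 in tumours, against 63.6, 30.2 and 11.9 in non-tumour tissue (5.65 ± 0.35, adjusted p 0.000360). Most of the tumour sum was Tspan8. The defining markers Krt19 (-0.11 ± 0.07, adjusted p 0.305) and Krt7 (-0.02 ± 0.07, adjusted p 0.890) did not pass, and neither did Epcam and Sox9. Cftr of the same list was called lower in tumours than in non-tumour tissue (-0.18 ± 0.04, adjusted p 0.0160), without overlap.

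Summed Kupffer cell and macrophage markers were 252 to 389 in tumours, 527 to 890 in non-tumour tissue and 683 to 1050 in normal diet liver, with 2 of 8 lower in tumours than in non-tumour tissue. For this and the lists below, 13.4% of all genes tested were lower in tumours than in non-tumour tissue and 12.0% higher. Endothelial markers were at 515 to 723, 712 to 787 and 787 to 983 in the same order, with 2 of 7 tested (Pecam1 and Cd34) higher. The brightest of them, Clec4g, had a mean of 295 in tumours and 499 in non-tumour tissue and did not pass (adjusted p 0.103). Stellate and fibroblast markers were at 1121 to 1760, 1448 to 1995 and 979 to 1082 in that order of groups (1 of 8 higher and 1 lower). Lymphocyte markers were at 21.1 to 34.7, 24.7 to 29.2 and 21.3 to 26.7 (0 of 5 called by limma, and 0 at an unadjusted p below 0.05). Red blood cell markers were at 108 to 118, 336 to 400 and 473 to 575 (2 of 2 tested lower). Gut markers were at 2328 to 2987, 2855 to 3335 and 998 to 1357, with 0 of 3 called between tumour and non-tumour tissue (0 also at an unadjusted p below 0.05, limma) and 2 of 3 higher in non-tumour tissue than in normal diet liver. Between the diets 1.81% of all genes tested were higher in non-tumour tissue. Cdh5 was at the blank level in both normal diet livers and Klrb1c in all non-tumour tissue. The part of these differences in the results above was not tested.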

How the data were processed

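RNA of 8 liver samples was measured on single-colour arrays of 27456 spots. The deposited files hold each spot's median intensity and a normalized intensity made by the authors. Set against the scanner values, the normalized intensity equals the median of the spot less the average blank spot, divided by 1 factor per array; the authors' further steps are not given in the sources used here. It was used for levels and as an alternative. Probes were named through the platform annotation: 20690 of 23473 had 1 gene symbol, 2783 had none and 0 had several. Per gene the probe with the highest mean over the 8 arrays was used, an unlisted value counting as 0 (1283 genes had more than 1 probe).

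For tests, scanner intensity was background-corrected with normexp on the 2736 blank spots, with an offset of 50, quantile-normalized and fitted as group means over all 8 arrays with limma 3.58.1 in R 4.3.3 (2-sided, empirical Bayes, Benjamini-Hochberg over 16800 genes, threshold 0.05). A gene was tested where no array of at least 1 group lacked a value for its probe. The script was tested on simulated data. Only 8 arrays limit the precision, and p-values rest on the spread between these samples. The main fit held no term for mouse, so its SEs and p-values do not use the pairing of tumour and non-tumour tissue.

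Members and lists were chosen with earlier results of these data known. All members were named, and of the other pathway genes up to 10 called between tumour and non-tumour tissue and up to 5 called between the diets, by size of change. Tumour and non-tumour tissue are paired by the labels, which give them to the same livers; deviations from the group means correlated at 0.442, 0.148 and 0.167 within mice 117, 186 and 1, and at -0.274 to 0.0280 between mice. The files give no scan batch, so none was fitted. Alternatives were the background correction, offset, scaling, the authors' values, the filter, the probe choice, the compared groups alone, mouse as a block and each array left out.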

Additional observations from a re-analysis of the deposited data

How the results depend on the processing

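Of the 20 members called between tumour and non-tumour tissue, 15 kept their call under every alternative other than local background. The same share was not computed for all called genes. Leaving out 1 tumour or non-tumour array gave 3118 to 4191 genes in all, beside 4268 in the main fit. With mouse as a fixed block, the pairing of the livers gave 18 members lower, 1 higher and 3495 genes in all. As a random block it gave 19 lower, 1 higher and 5083 genes in all. Beyond Cyp7b1 the block ended no member's call. Subtracting local background gave 0 members higher, 0 lower and 129 genes in all between tumour and non-tumour tissue, 0 higher and 4 genes in all between the diets, and 0 higher, 1 lower and 223 genes in all between tumour and normal diet liver. The local background correlated in rank with its spot at 0.902 to 0.960 and had a median of 39.3% to 61.9% of the spot signal in probes above 1000; its part in these counts was not tested. It also turned the sign between tumour and non-tumour tissue of Amacr (0.29), Slco2b1 (0.0113), Abcb1a (-0.0103), Abcc2 (0.0274), Gpbar1 (-0.0229) and Akr1c6 (0.24), and between the diets of Akr1d1 (0.19) and Slco1a4 (0.10).

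Between the diets, median scaling gave 3 members higher, 1 lower and 1403 genes in all, and the values of the authors gave 3 lower and 1136 genes in all. The compared groups alone gave 2 higher, 3 lower and 809 genes in all. Leaving out 1 array at a time gave 0 to 1 higher, 0 to 3 lower and 95 to 781 genes in all. Between tumour and normal diet liver, the compared groups alone and no filter each gave 1 higher, and leaving out 1 array gave 1 to 2 higher, 10 to 18 lower and 2316 to 4439 genes in all. Signs near 0 turned when 1 array was left out: Slc51b ranged from -0.0856 to 0.0256 (0.00196 without the non-tumour array of mouse 186, 0.0256 without its tumour array), Nr5a2 from -0.0910 to 0.0216 (0.0216 without the non-tumour array of mouse 186) and Gpbar1 from -0.0182 (without that array) to 0.0456. Gpbar1 was also at -0.00347 after median scaling and at -0.0254 in the authors' values. The cause of these differences was not tested. Genes near the blank level, such as Slc51a, Slc51b and Cyp46a1, are limited by signal.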
